A study of Mus musculus with 4 samples.

Results

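The 10 cytokine genes of activated CD4+ T cells that were examined (Lif, Lta, Ltb, Tnf, Csf2, Ifng, Il4, Il10, Il13 and Il21) were part of 19752 genes that had a row of their own that could be measured. They are effector cytokines, the secreted or membrane-bound signals through which helper T cells act on other cells, and were chosen by name. That choice was made with earlier results of these data known. Each of the 10 genes had 1 row whose annotation names it alone. A total of 7 passed a filter on dim genes, which kept 10699 genes that exceeded the median row of an array on 1 or more arrays. The other 3 (Csf2, Il10 and Il21) lay below the median on all 4 arrays, so only their values are given.

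The 4 arrays held RNA of CD4+ T cells enriched by negative selection from spleens of male C57BL/6 mice aged 6 weeks. All cells had first been stimulated with beads against CD3 and CD28 for 48 h. Of these arrays, 2 were baseline cells with no interferon, 1 was cells given interferon alpha (IFNa, a type I interferon) at 100 U/ml for 2 h, and 1 was cells given it for 8 h. The preparation label of both IFNa samples also names Janus kinase inhibitors with a plus/minus sign, while their other labels name IFNa alone. No array of untreated cells kept in culture for the same 2 h or 8 h was analysed here, so IFNa cannot be told apart from time in culture. Whether the baseline samples are from different mice or cultures, or how many mice were pooled, is not in the labels. P-values therefore measure only how the pair of baseline arrays varied, possibly for technical reasons, and each IFNa array, which has no replicate, was taken to vary as the baseline arrays did. In bulk RNA, fewer expressing cells and less RNA per cell cannot be told apart.

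Cytokine genes are largely silent in resting T cells and are switched on by antigen receptor and costimulatory signals, through factors such as NFAT, AP-1 and NF-kB. Their transcripts are short-lived, because proteins that bind AU-rich or stem-loop elements direct their decay, so transcript levels depend on both transcription and decay. Helper T cell subsets are recognised by the cytokines they make, with Ifng in type 1 cells, Il4 and Il13 in type 2 cells and Il21 in follicular cells.

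Ifit1 and Usp18, the 2 of 8 measured interferon-induced genes that lay above the array median on all 4 arrays, rose at both times (limma, adjusted p under 0.05), with log2 differences from baseline of 3.0 and 3.22 at 2 h and of 2.92 and 3.02 at 8 h. The other 6 lay below the median on 1 or both baseline arrays, and 5 of them passed the filter through the IFNa arrays alone, so they had to be higher there and are not counted. Of 10 T cell markers, 9 had a row, and all 9, Cd3e and Cd4 among them, lay above the array median on all 4 arrays. No change was called in them (limma; 0 of 9 at an unadjusted p under 0.05 at either time). Of all 10699 tested genes, 2636 at 8 h and 1298 at 2 h had such a p. Some genes of other cell types were above the median as well. The B cell markers Ms4a1, Cd79a, Cd79b and Pax5 were among them, and the 5 B cell markers with a row summed to 2270 and 2295 intensity units in baseline cells, 2249 after 2 h and 2929 after 8 h. The summed markers of monocytes and macrophages (5 rows) were 777 and 618 in baseline cells, 464 after 2 h and 638 after 8 h, and the 5 dendritic cell markers lay below the median on all arrays. The 2 CD8 T cell markers summed to 1112 and 1001 in baseline cells, 921 after 2 h and 1191 after 8 h. The 5 NK cell markers summed to 647 and 563 in baseline cells, 657 after 2 h and 564 after 8 h. The 6 markers of neutrophils, mast cells and erythroid cells summed to 698 and 707 in baseline cells, 752 after 2 h and 816 after 8 h. The part of such cells in the results below was not tested. Over all tested genes the log2 difference from baseline had a median of −0.16 for the 8 h array and 0.06 for the 2 h array, which became 0.00 and −0.01 after quantile normalization. With arrays centred on their medians these were −0.24 and 0.15, larger in size than as reported. Calls on centred arrays below carry that shift. The 8 h array had the highest median intensity (199, against 195 and 183 at baseline and 176 at 2 h). Its upper quartile was the lowest (574, against 669 and 730 at baseline and 769 at 2 h), so bright genes as a group read lower there.

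At 8 h, Lif, Lta, Il4 and Tnf fell, and each lay below all 3 other arrays, as 51.0% of all tested genes did. They are 4 of the 7 tested cytokine genes, while 3.35% of all tested genes were called lower at 8 h and 0.654% higher. Since the genes were chosen with earlier results of these data known, these shares describe the genes and are no test of the set. The comparison asks which cytokine genes are lower late after IFNa.

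Lif encodes leukaemia inhibitory factor, a cytokine of the interleukin 6 family that signals through Lifr and Il6st. Its intensity was 579 and 732 in baseline cells, 747 after 2 h of IFNa and 153 after 8 h. The 8 h array stood alone, and the 2 h array lay just above the higher baseline array. Lif was 4.24-fold lower at 8 h than at baseline (log2 difference −2.09, SE 0.22, 1 array against 2; limma, adjusted p = 0.00321), which ranked 14 among the 10699 tested genes counted from the lowest.

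Lta encodes lymphotoxin alpha, which is secreted as a homotrimer or anchored to the cell surface by Ltb. It had an intensity of 610 and 602 in baseline cells, 592 after 2 h of IFNa and 181 after 8 h. The baseline and 2 h arrays were nearly level and the 8 h array was far below them. Lta was 3.35-fold lower at 8 h (log2 difference −1.74, SE 0.20; limma, adjusted p = 0.00451), at rank 24 from the lowest.

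Il4, the cytokine that drives helper T cells towards the type 2 fate and B cells towards IgE, had an intensity of 577 and 575 in baseline cells, 598 after 2 h of IFNa and 222 after 8 h. Again only the 8 h array departed. Il4 was 2.59-fold lower at 8 h (log2 difference −1.37, SE 0.20; limma, adjusted p = 0.0128), at rank 81. Its baseline arrays differed by only 0.01 on the log2 scale, and its SE comes mainly from the spread of all genes.

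Tnf, the inflammatory cytokine tumour necrosis factor, had an intensity of 1205 and 1537 in baseline cells, 1865 after 2 h of IFNa and 551 after 8 h. The 2 h array was the highest and the 8 h array the lowest. Tnf was 2.47-fold lower at 8 h (log2 difference −1.30, SE 0.23; limma, adjusted p = 0.0233), at rank 92. With no filter on dim genes, so that 19752 genes were tested, its adjusted p was 0.0518 and the call ended. Relative to the median difference of all tested genes at 8 h, Lif stood at −1.92, Lta at −1.58, Il4 at −1.21 and Tnf at −1.14 on the log2 scale. All 4 were at least 2-fold lower than either baseline array taken alone. Lif and Lta lay below the array median at 8 h and passed the filter through the other 3 arrays, and both were still called when all 19752 genes were tested.

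**Figure D1:**
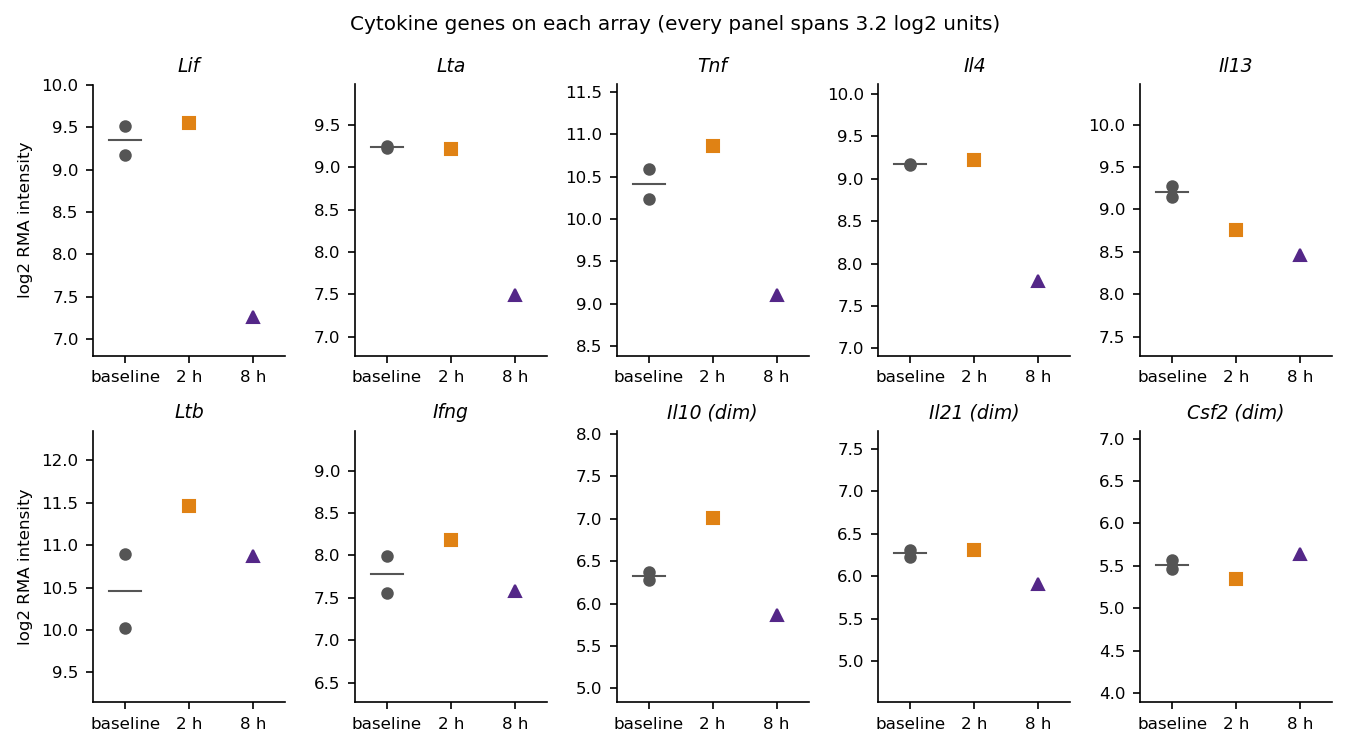
Log2 RMA intensity of the 10 cytokine genes (y axis, 1 panel per gene, all panels of equal span) at baseline, 2 h and 8 h of IFNa (x axis); grey circles are the 2 baseline arrays with their mean as a line, the orange square is the 2 h array and the purple triangle the 8 h array. Lif, Lta, Tnf and Il4 show a lone low point at 8 h, and the panels marked dim are genes below the array median on all arrays.

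The stretches just upstream of these genes are shown because Lif, Lta, Tnf and Il4 were lower together at 8 h while Ltb, the neighbour of Tnf, was not called. Each is the 250 bases before the annotated start of transcription, 5′ to 3′ in the direction of the gene, from RefSeq's promoter table (build GRCm38.p6). Of the 10 genes 9 matched, and Il10 did not. For Il4, which has 2 starts in the table, the upstream one is shown. Capitals mark the core letters bound by NFAT factors, GGAAA on the gene's strand or TTTCC where they lie on the other strand.
Lif, chr11:4257318-4257567, plus strand: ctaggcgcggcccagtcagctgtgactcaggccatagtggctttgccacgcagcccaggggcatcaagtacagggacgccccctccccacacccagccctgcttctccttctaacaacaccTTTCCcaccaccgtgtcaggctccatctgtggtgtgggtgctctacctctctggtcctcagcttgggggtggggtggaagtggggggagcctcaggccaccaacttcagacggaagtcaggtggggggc
Lta, chr17:35205352-35205601, minus strand: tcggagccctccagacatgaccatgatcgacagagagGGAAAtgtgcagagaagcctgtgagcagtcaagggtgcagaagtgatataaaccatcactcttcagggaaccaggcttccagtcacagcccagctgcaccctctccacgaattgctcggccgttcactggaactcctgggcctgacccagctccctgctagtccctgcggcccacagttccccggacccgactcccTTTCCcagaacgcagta
Tnf, chr17:35202008-35202257, minus strand: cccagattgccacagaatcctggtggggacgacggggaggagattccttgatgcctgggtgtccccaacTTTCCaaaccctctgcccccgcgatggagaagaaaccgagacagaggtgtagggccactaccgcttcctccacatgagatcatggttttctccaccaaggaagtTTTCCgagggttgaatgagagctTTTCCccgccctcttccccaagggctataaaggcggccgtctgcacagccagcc
Il4, chr11:53618666-53618915, minus strand: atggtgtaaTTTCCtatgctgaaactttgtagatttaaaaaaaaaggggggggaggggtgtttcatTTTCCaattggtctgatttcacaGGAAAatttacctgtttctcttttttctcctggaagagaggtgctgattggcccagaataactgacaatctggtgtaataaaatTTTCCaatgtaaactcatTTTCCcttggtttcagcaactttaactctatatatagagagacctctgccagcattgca
Ltb, chr17:35194257-35194506, plus strand: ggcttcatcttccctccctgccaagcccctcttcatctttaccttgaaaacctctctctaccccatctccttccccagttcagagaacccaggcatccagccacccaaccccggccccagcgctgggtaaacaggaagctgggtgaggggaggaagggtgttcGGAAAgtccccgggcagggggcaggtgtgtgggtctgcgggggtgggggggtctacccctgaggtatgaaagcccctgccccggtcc

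The Il4 stretch holds 5 NFAT cores, Tnf 3, Lta 2, Lif 1 and Ltb 1, counted on both strands. Of the genes whose stretches are not shown, Il13 holds 4, Il21 3, Csf2 2 and Ifng 1. Several cores were therefore not particular to the genes that fell. One of the Il4 cores overlaps a match to the interferon-stimulated response element core (GAAA, any 2 bases, GAAA), which lies on the other strand at bases −190 to −181 from the start. All 9 cytokine genes hold at least 1 NFAT core, as do 55.6% of the 32851 promoters in the table, while 0.39% of them hold 5 or more and 6.39% hold 3 or more. The response element core was found in 1 of the 9 genes (Il4) and in 2.98% of all promoters. TTCNNNGAA, the letters bound by STAT dimers, was found in 3 of the 9 (Lta with 2 matches, Ltb and Ifng) and in 7.02% of all promoters, and in Lta 1 of its matches overlaps an NFAT core. The AP-1 letters TGANTCA were found in 1 (Lif) and in 6.75% of all promoters. TATAAA was found in 4 (Lta, Tnf, Ifng and Il13) and in 12.4%, 29 bases before the start in Tnf. A match of letters is a description and not evidence of binding.

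Among the other tested cytokine genes no change was called at 8 h. Il13, which drives mucus production and alternative macrophage activation, had an intensity of 565 and 621 in baseline cells, 434 after 2 h of IFNa and 354 after 8 h. Both IFNa arrays lay below both baseline arrays. Its log2 difference at 8 h was −0.74 (SE 0.20, 95% interval −1.21 to −0.27; limma, adjusted p = 0.0827). An interval of this kind is not adjusted for the number of genes.

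Ltb, the membrane anchor of lymphotoxin, had an intensity of 1044 and 1910 in baseline cells, 2823 after 2 h of IFNa and 1879 after 8 h. The 8 h array lay between the baseline arrays, which themselves differed by 0.87 on the log2 scale. The log2 difference at 8 h was 0.41 (SE 0.33, 95% interval −0.34 to 1.16; limma, adjusted p = 0.46). Without baseline replicate 2 it was 0.85 and without baseline replicate 1 it was −0.02, so its sign differed between the baseline arrays.

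Ifng encodes interferon gamma, the type II interferon. It had an intensity of 188 and 255 in baseline cells, 290 after 2 h of IFNa and 192 after 8 h, and was above the array median on 2 of the 4 arrays. The 8 h array lay between the baseline arrays (log2 difference −0.19, SE 0.24, 95% interval −0.74 to 0.36; limma, adjusted p = 0.651). Its sign differed between the baseline arrays, with −0.41 without baseline replicate 1 and 0.03 without baseline replicate 2. Neither a fall as large as that of Tnf nor a 2-fold rise lies within that interval. The interval rests on 1 array at 8 h, and the gene lay near the array median, where a fold may read too small.

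The 3 dim genes lay below the median of every array, Csf2 between the 12.1 and 14.3 percentiles, Il21 between 16.4 and 29.6 and Il10 between 15.7 and 42.8. Il10, an anti-inflammatory cytokine, had an intensity of 77.4 and 82.9 in baseline cells, 129 after 2 h of IFNa and 58.2 after 8 h. Its 2 h array was the highest and its 8 h array the lowest. Il21, a cytokine of follicular helper cells, had 79.6 and 75.0 in baseline cells, 79.0 after 2 h of IFNa and 60.2 after 8 h, with the 8 h array lowest. Csf2, the growth factor GM-CSF, had 47.4 and 44.1 in baseline cells, 40.6 after 2 h of IFNa and 49.7 after 8 h, with the arrays in no clear order. When all 19752 genes were tested, none of the 3 was called at 8 h (limma, adjusted p = 0.321 for Il10, 0.409 for Il21 and 0.794 for Csf2).

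Counting all 10 genes with no test, the 8 h array lay below both baseline arrays in 7, between them in 2 and above both in 1. Of the 7 tested genes it lay below both in 5 and above both in 0, and over all tested genes it lay below both in 55.9% and above both in 24.4%. That count is near the background. The differences of Lif, Lta, Il4 and Tnf were large, but these genes were picked out by that size, which is therefore no separate support for the set. The median log2 difference of the 7 tested genes was −1.30 at 8 h, beside −0.16 over all tested genes, and 4 of the 7 were at least 2-fold lower, as were 2.60% of all tested genes. The dim genes, left out of that median, stood at −0.46 (Il10), −0.36 (Il21) and 0.12 (Csf2).

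At 2 h, which asks for early effects of IFNa, no tested cytokine gene was called in either direction (limma; 1 of 7 at an unadjusted p under 0.05), while 1.09% of all tested genes were called higher and 0.00935% lower. Ltb had the largest difference, 2.0-fold higher at 2 h than at baseline (log2 difference 1.0, SE 0.33, 95% interval 0.25 to 1.75; limma, adjusted p = 0.286). With arrays centred on their medians its adjusted p was 0.00884 and after quantile normalization 0.0207, which makes it a call, and the log2 difference was 0.56 without baseline replicate 1 and 1.44 without baseline replicate 2. Tnf stood at 0.45 (SE 0.23; adjusted p = 0.466), Ifng at 0.40 (SE 0.24; adjusted p = 0.527) and Lif at 0.20 (SE 0.22; adjusted p = 0.734). Il4 at 0.06 (SE 0.20; adjusted p = 0.928) and Lta at −0.03 (SE 0.20; adjusted p = 0.96) were nearest to 0, and the sign of Lta turned with arrays centred on their medians and that of Il4 after quantile normalization. Il13 stood at −0.45 (SE 0.20; adjusted p = 0.43). Il10 was the dim gene with the largest log2 difference, 0.68, with an adjusted p of 0.458 when all genes were tested. The 2 h array lay above both baseline arrays in 5 of the 7 tested genes and below both in 2, and over all tested genes in 44.5% and 33.0%.

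**Figure D2:**
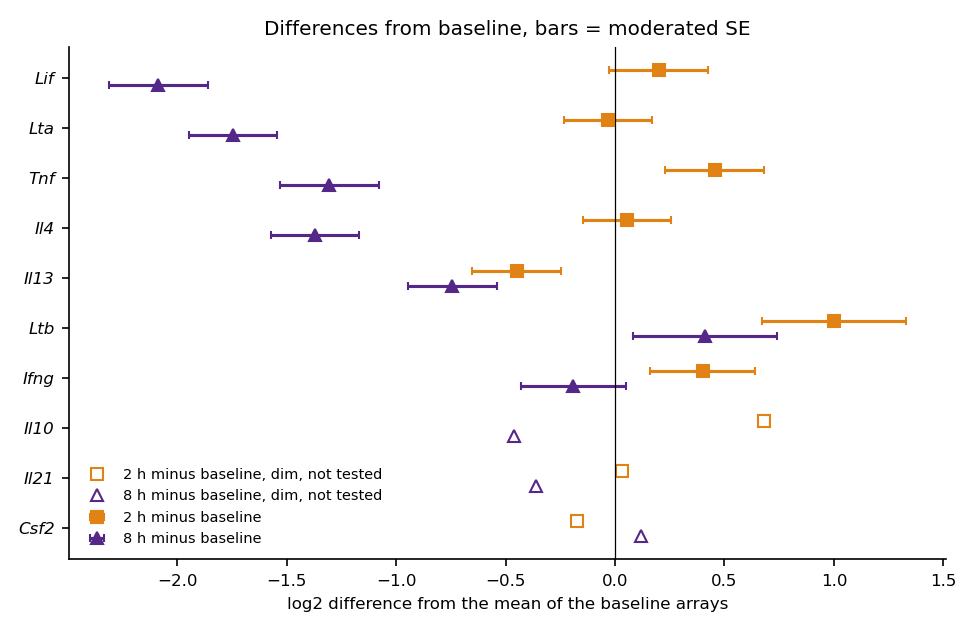
Log2 difference of the 2 h array (orange squares) and the 8 h array (purple triangles) from the mean of the 2 baseline arrays (x axis) for each cytokine gene (y axis); bars are moderated standard errors and open symbols are dim genes with no test. At 8 h Lif, Lta, Il4 and Tnf lie between −2.09 and −1.30, while at 2 h the tested genes lie between −0.45 and 1.0.

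The 8 h and 2 h arrays were then compared directly, which leaves the baseline out of the difference, though the spread still comes from it. All 7 tested genes were lower at 8 h than at 2 h, as were 7266 of all 10699 tested genes, and 4 were called. In the same comparison 10.8% of all tested genes were called lower and 1.46% higher, and the median over all of them was −0.25. Lif was 4.87-fold lower (log2 difference −2.28, SE 0.26; limma, adjusted p = 0.0079), Tnf 3.38-fold lower (−1.76, SE 0.26; adjusted p = 0.0117), Lta 3.27-fold lower (−1.71, SE 0.23; adjusted p = 0.00963) and Il4 2.69-fold lower (−1.43, SE 0.23; adjusted p = 0.0142). Ifng (−0.59, SE 0.28; adjusted p = 0.157), Ltb (−0.59, SE 0.38; adjusted p = 0.291) and Il13 (−0.29, SE 0.24; adjusted p = 0.394) were not called. Il13 turned to 0.02 after quantile normalization. Of the dim genes, Il10 stood at −1.14, with an adjusted p of 0.0531 when all genes were tested. These differences share the 8 h array with the comparison against baseline, so they do not add an independent measurement of it.

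Several of these cytokine genes are neighbours on their chromosomes, and the values were therefore set in gene order (2 protein-coding genes on each side by the RefSeq table, a rule set after values were seen). On chromosome 17 the order is Lst1, Ltb, Tnf, Lta and Nfkbil1. Tnf and Lta fell at 8 h, while on either side of them Ltb (0.41) and Nfkbil1, a gene related to NF-kB inhibitors (0.01, SE 0.20; limma, adjusted p = 0.978), were not called. The 95% interval of Ltb (−0.34 to 1.16) does not overlap that of Tnf (−1.82 to −0.79), but the difference between the genes was not itself tested. Lst1, a leukocyte transcript, stood at 0.35 (SE 0.20; adjusted p = 0.319).

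On chromosome 11 the order is Kif3a, Il4, Il13, Rad50 and Il5. All of these were lower at 8 h than the baseline mean, as were 7215 of all 10699 tested genes. Kif3a, a kinesin motor subunit of cilia, was called (log2 difference −0.93, SE 0.21; limma, adjusted p = 0.047), but not with no filter on dim genes (adjusted p = 0.101), a stricter filter at the 60th percentile of each array (0.0589) or 50 added before log2 (0.0651). Kif3a lay below the array median at 8 h and passed the filter through the other 3 arrays. Rad50, a DNA repair gene that carries the control region of this locus, was not called (−0.81, SE 0.20; adjusted p = 0.063), though it was after quantile normalization (0.0497) and on centred arrays (0.0363), and Il5, the eosinophil growth factor, was dim (−0.36). On chromosome 3 the dim Il21 (−0.36) lies next to Il2, the T cell growth cytokine, whose intensity was 898 and 600 in baseline cells, 1189 after 2 h of IFNa and 156 after 8 h. Beside Csf2 lies Il3, which was also dim, with a log2 difference of −0.37 at 8 h. Beside Lif lies Osm, oncostatin M of the same family, with −0.51 (SE 0.21; adjusted p = 0.185).

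**Figure D3:**
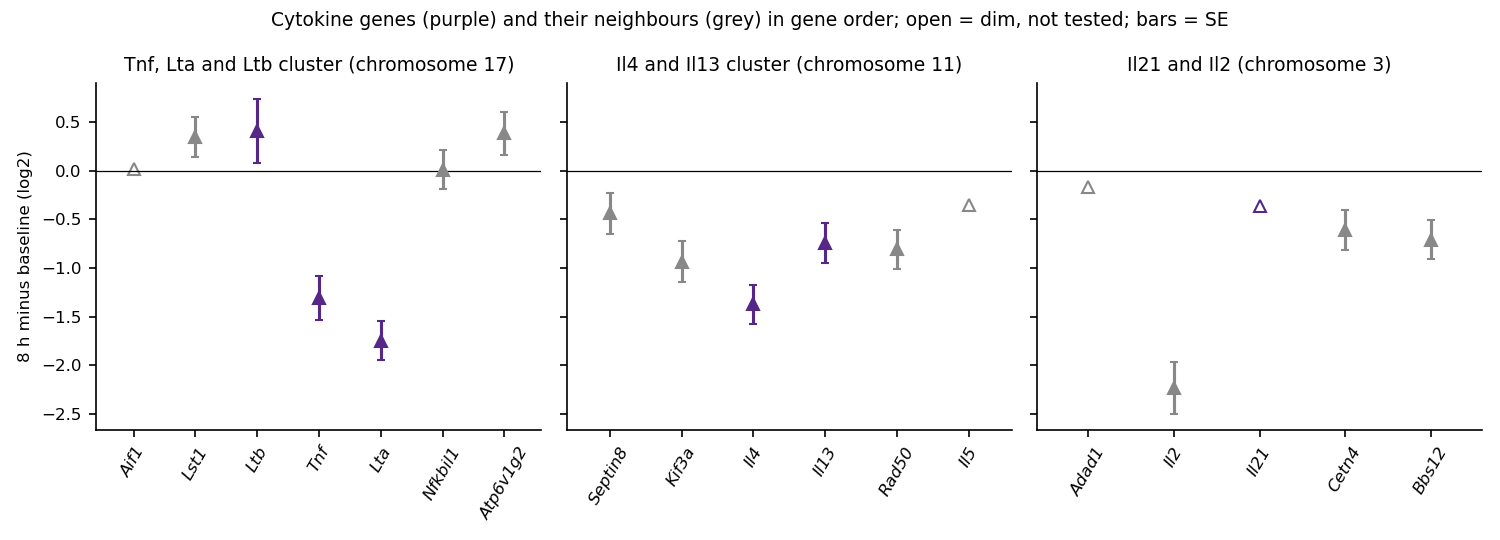
Log2 difference of the 8 h array from the baseline mean (y axis) for cytokine genes (purple) and their neighbours (grey) in chromosome order (x axis, 1 panel per locus, not to distance); bars are moderated standard errors and open symbols are dim genes. Tnf and Lta stand below their neighbours Ltb and Nfkbil1, and Kif3a, Il4, Il13 and Rad50 all lie between −1.37 and −0.74.

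Other cytokine genes that T cells make were set beside these. Of 22 listed, 20 had a row and 12 were tested. At 8 h, 1 fell and none rose, where 3.35% of all tested genes were called lower and 0.654% higher, and the list median was −0.23 beside −0.16 over all tested genes. The one that fell was Il2 (log2 difference −2.23, SE 0.27; limma, adjusted p = 0.00508). Il2 lay below the array median at 8 h and passed the filter through the other 3 arrays. It was still called when all 19752 genes were tested (limma, adjusted p = 0.0117). At 2 h, 2 rose and none fell, where 1.09% of all tested genes were called higher, with a list median of 0.32 beside 0.06 over all tested genes. These were the death ligand Fasl (1.45, SE 0.20; adjusted p = 0.0131) and Tnfsf8, the ligand of CD30 (1.28, SE 0.22; adjusted p = 0.0343). Fasl was above the array median on the 2 h array alone and passed the filter only through it. When all 19752 genes were tested it was still called (adjusted p = 0.0294), and under the stricter filter it was not tested. The call of Tnfsf8 ended with no filter on dim genes (adjusted p = 0.0752) and with the stricter filter (0.0527). Both belong to the tumour necrosis factor family, as do Tnf, Lta and Ltb. Tnfsf11, Cd40lg and Tnfsf14, also of that family and list, stood at 0.42, 0.29 and 0.21 at 2 h and were not called. At 8 h Fasl stood at 0.02 (SE 0.20) and Tnfsf8 at −0.42 (SE 0.22), neither called. Between 8 h and 2 h, 3 of the 12 were called lower, Il2 (−2.93), Tnfsf8 (−1.70) and Fasl (−1.43). In that comparison 10.8% of all tested genes were called lower. Fasl entered only through the 2 h array, so the filter favoured that direction for it. The list median was −0.39, beside −0.25 over all tested genes.

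The receptors of the 10 cytokines were not called at either time (limma; 18 listed, 17 with a row, 11 tested). Of all tested genes, 3.35% were called lower and 0.654% higher at 8 h, and 1.09% higher and 0.00935% lower at 2 h. No call in so short a list is therefore near the background. An unadjusted p under 0.05 was found for 2 of 11 at 8 h and 4 at 2 h, beside 2636 and 1298 of all 10699. The largest differences at 8 h were those of Il21r, the receptor of Il21 (−0.70, SE 0.21; adjusted p = 0.0991), and Il4ra, a receptor chain for Il4 and Il13 (−0.69, SE 0.25; adjusted p = 0.153). At 2 h they were those of Tnfrsf1b, a receptor of Tnf and Lta (1.01, SE 0.23; adjusted p = 0.106), and Ifngr2, a chain of the interferon gamma receptor (0.75, SE 0.21; adjusted p = 0.193). Between 8 h and 2 h both of these were called lower (Tnfrsf1b −1.03, SE 0.26, adjusted p = 0.0419; Ifngr2 −1.16, SE 0.24, adjusted p = 0.025), but with no filter on dim genes neither was (adjusted p = 0.0828 and 0.0532). Tnfrsf1b was called at 2 h after quantile normalization (adjusted p = 0.00704) and on centred arrays (0.00835), and its call between 8 h and 2 h ended under the stricter filter (0.052). These 2 calls between 8 h and 2 h are among 11 tested receptors, where 10.8% of all tested genes were called lower.

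Of 19 factors that activate cytokine genes after stimulation, 18 were tested, and 3 fell and none rose at 8 h, where 3.35% of all tested genes were called lower and 0.654% higher. Irf4, a factor induced by the antigen receptor that acts with AP-1, had an intensity of 1657 and 2276 in baseline cells, 2191 after 2 h of IFNa and 682 after 8 h. Its 8 h difference was called (log2 −1.51, SE 0.24; limma, adjusted p = 0.0187). Jun, the AP-1 subunit, had 312 and 409 in baseline cells, 442 after 2 h of IFNa and 137 after 8 h, and it too was called (8 h difference −1.38, SE 0.23; adjusted p = 0.022). Both were lowest at 8 h with no call at 2 h, as Lif, Lta, Il4 and Tnf were. Of all tested genes, 51.0% were lowest at 8 h. Egr2, a zinc finger factor of activated T cells, was called higher at 2 h (1.65, SE 0.21; adjusted p = 0.00886) and lower at 8 h (−1.0, SE 0.21; adjusted p = 0.0411), but the call at 8 h ended with no filter (adjusted p = 0.0894) or the stricter filter (0.0532).

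At 2 h, 4 of these 18 factors rose and none fell, where 1.09% of all tested genes were called higher and 0.00935% lower. Beside Egr2 they were the NF-kB subunits Relb (1.57, SE 0.26; limma, adjusted p = 0.0316) and Nfkb2 (1.29, SE 0.23; adjusted p = 0.0417) and the AP-1 family member Fosl2 (1.18, SE 0.20; adjusted p = 0.0346). These 3 calls ended with no filter on dim genes (adjusted p between 0.0665 and 0.0895) and with the stricter filter (between 0.0505 and 0.062), while Egr2 was still called. None of Relb, Nfkb2 and Fosl2 was called at 8 h against baseline, with log2 differences of 0.07, −0.19 and −0.29. Nfatc1, Nfatc2 and Nfatc3, the NFAT genes of the list, stood at 0.02, −0.04 and 0.24 at 8 h, none called. The list median was 0.51 at 2 h and −0.22 at 8 h, beside 0.06 and −0.16 over all tested genes. Between 8 h and 2 h, 9 of the 18 factors were called lower and 0 higher, where 10.8% of all tested genes were called lower. The list median in that comparison was −0.76, beside −0.25 over all tested genes. The list was chosen with earlier results of these data known, so these counts are no test of it.

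Regulators of cytokine transcript decay gave no call against baseline at either time (limma; 13 tested; 1 at an unadjusted p under 0.05 at each). With 3.35% of all tested genes called lower at 8 h and 1.09% called higher at 2 h, that is near the background. Over all 10699 tested genes, 2636 at 8 h and 1298 at 2 h had an unadjusted p under 0.05. The largest differences at 8 h were those of Elavl1, which stabilises AU-rich transcripts (−0.48, SE 0.20; adjusted p = 0.196), and Tial1 (−0.37, SE 0.21; adjusted p = 0.311). Zc3h12a, the endonuclease Regnase-1 that cleaves stem-loops of cytokine transcripts, stood at 0.80 at 2 h (SE 0.21; adjusted p = 0.169) and −0.13 at 8 h, and was called lower at 8 h than at 2 h (−0.93, SE 0.24; adjusted p = 0.0431), a call that ended after quantile normalization (0.0611), with no filter (0.0856) and with the stricter filter (0.0515). It was the 1 of the 13 called lower between 8 h and 2 h, near the share of 10.8% over all tested genes. Zfp36, which destabilises Tnf transcripts, stood at −0.10 at 2 h and −0.06 at 8 h.

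The helper lineage factors likewise held no call against baseline (limma; 15 listed, 13 tested; 1 at an unadjusted p under 0.05 at 8 h and 2 at 2 h). This too is near the background, where 3.35% of all tested genes were called lower at 8 h and 1.09% higher at 2 h. An unadjusted p under 0.05 was found for 2636 of all 10699 at 8 h and 1298 at 2 h. Gata3, the factor of the type 2 fate that acts on Il4 and Il13, stood at −0.35 at 8 h (SE 0.20; adjusted p = 0.31), and Tbx21, the factor of the type 1 fate that acts on Ifng, at 0.01. The largest difference at 8 h was that of Ikzf3 (0.56, SE 0.20; adjusted p = 0.15), which was called after quantile normalization (adjusted p = 0.0301). Bcl6, the factor of follicular helper cells, stood at 0.89 at 2 h (SE 0.21; adjusted p = 0.114) and was called lower at 8 h than at 2 h (−0.96, SE 0.24; adjusted p = 0.0382), though not with no filter (0.0775). At 2 h Bcl6 was called after quantile normalization (0.0235) and on centred arrays (0.0286). It was the 1 of the 13 called lower between 8 h and 2 h, near the share of 10.8% over all tested genes.

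**Figure D4:**
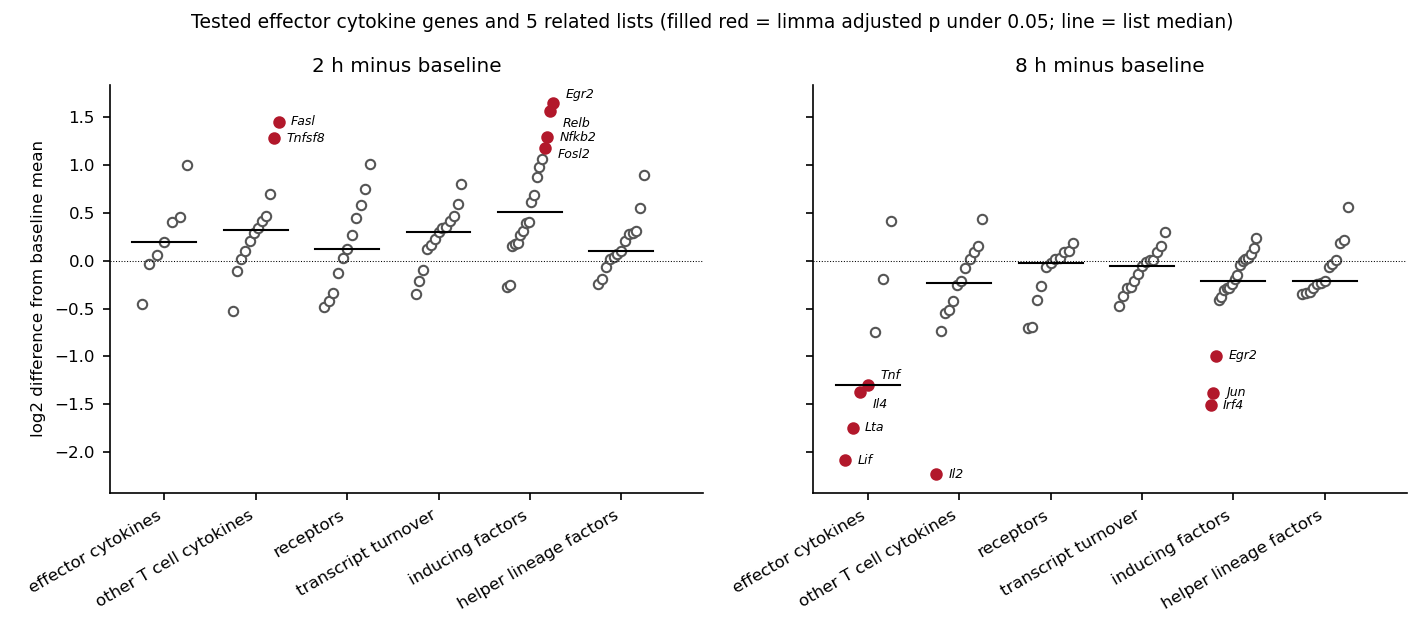
Log2 difference from the baseline mean (y axis) of the tested effector cytokine genes and of 5 lists related to them (x axis) at 2 h (left) and 8 h (right); each point is a gene, filled red where limma's adjusted p was under 0.05 and then named, and the black line is the list median. The interferon-induced genes and cell type markers are not plotted. The plotted called points at 2 h are all above 0 and those at 8 h, Lif, Lta, Il4, Tnf, Il2, Egr2, Jun and Irf4, all below 0.

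The genes nearest in pattern were sought for Lif and Lta, those of the 10 cytokine genes with the largest differences at 8 h. Likeness was the Euclidean distance over 3 log2 differences (2 h and 8 h from the baseline mean, and baseline 2 from baseline 1) on the 4 arrays. The 5 nearest to Lif were Itih5 (distance 0.21), Cish (0.30), Hmgcs1 (0.39), Socs2 (0.41) and Arhgap5 (0.41), with 8 h differences between −2.18 and −1.83. The 5 nearest to Lta were Arhgap5 (0.20), Hsd17b7 (0.22), Fam136a (0.22), Acaca (0.23) and Prkar2a (0.24), with 8 h differences between −1.83 and −1.55. Cish and Socs2 encode suppressors of cytokine signalling, and Hmgcs1, Hsd17b7 and Acaca encode enzymes of sterol or fatty acid synthesis. With 4 arrays many genes lie near any given pattern.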

How the data were processed

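Each sample was run on 1 Affymetrix Mouse Gene 1.0 ST array. Intensity values on a linear scale were deposited by the authors. The submitters' processing notes name RMA and Affymetrix Power Tools, without versions. RMA corrects background, equalises arrays and summarises a transcript's probes, though the deposited arrays still differed in median and upper quartile. It leaves some unspecific signal, which makes folds of dim genes too small. Log2 was taken here with no pseudocount. Of 24922 rows, 21425 had 1 gene symbol in the platform annotation, 1399 had several and 2098 had none listed. Only rows with 1 symbol were used, and a gene with several rows took the one with the highest mean. Genes above the array's 50th percentile on at least 1 array were tested.

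Groups follow the treatment time given in the labels. Limma 3.58.1 in R 4.3.3 was fitted with a mean per group, moderated variances and Benjamini-Hochberg adjustment over all tested genes, two-sided, and called at an adjusted p under 0.05. There was 1 residual degree of freedom, and the prior held an SD of 0.175 with 7.46 degrees of freedom. The number of arrays limits the precision. The script was tested on simulated data. Named genes were all 10 cytokines, up to 4 called genes of each list per comparison (or the 2 largest differences), Il2, interferon-induced genes and the 5 nearest in pattern, and genes such as Nfatc1, Zfp36, Tbx21, Osm and the neighbours were named beyond that rule after their values were seen. The cytokine genes and lists were chosen with earlier results of these data known. Alternatives were quantile normalization, arrays centred on their medians, no filter or one at the 60th percentile, an intensity trend, the mean of a gene's rows, 50 added before log2, a 2-fold rule and each baseline array left out.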

Additional observations from a re-analysis of the deposited data

Results flagged for a closer look

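The change from baseline differed between 2 h and 8 h for 4 of the 7 tested cytokine genes, by the direct test of 8 h against 2 h in which the shared baseline cancels (limma, 1 array against 1, spread taken from the baseline arrays). The log2 difference was −2.28 for Lif (adjusted p = 0.0079), −1.71 for Lta (adjusted p = 0.00963), −1.76 for Tnf (adjusted p = 0.0117) and −1.43 for Il4 (adjusted p = 0.0142). Each gene was lower on the 1 array at 8 h than on the 1 array at 2 h, and 10.8% of all tested genes were called lower in this comparison. Time in culture cannot be told apart from IFNa in these values. No group held enough arrays for a search for outlying samples.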

How the results depend on the processing

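The falls of Lif, Lta and Il4 at 8 h were called under all 7 alternatives with a test (adjusted p up to 0.00747, 0.0108 and 0.0296), and that of Tnf under 6 of 7. Without the filter on dim genes 3 of the cytokine genes were called lower at 8 h in place of 4, since Tnf stood at an adjusted p of 0.0518. Over the alternatives and with either baseline replicate left out the log2 difference ran from −2.26 to −1.79 for Lif, −1.83 to −1.51 for Lta, −1.45 to −1.20 for Il4 and −1.48 to −1.04 for Tnf. The 4 calls of 8 h against 2 h held under all 7. At 2 h, 1 cytokine gene (Ltb) was called higher after quantile normalization and 1 with arrays centred on their medians, against 0 as reported, and the count at least 2-fold higher ranged from 0 to 1 when a baseline replicate was left out. The count at least 2-fold lower at 8 h was 4 without either replicate. Signs turned for Lta at 2 h on centred arrays (0.0666), for Il4 at 2 h after quantile normalization (−0.0642) and for Il13 between 8 h and 2 h after quantile normalization (0.0219). On centred arrays the signs at 8 h also turned for Relb (−0.0103), Fasl (−0.0579), Nfkbil1 (−0.0657), Tbx21 (−0.0671) and Nfatc1 (−0.0640), and that of Zfp36 at 2 h (0.0039). After quantile normalization those at 8 h turned for Nfkb2 (0.0863), Fasl (−0.1975), Zc3h12a (0.0664), Zfp36 (0.2320) and Nfatc2 (0.1142). Leaving out a baseline replicate also turned the sign at 8 h of Ltb (−0.0235) and Ifng (0.0284), of Nfkbil1, Tbx21, Fasl, Relb, Zfp36, Nfatc1 and Nfatc2, and of Il21 at 2 h. None of these was called, and apart from the arrays left out the cause was not tested. Calls of single genes beyond the cytokines that changed are given beside them.

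Counts over all genes moved more. Genes called lower at 8 h numbered 358 as reported, 900 after quantile normalization, 724 on centred arrays, 101 with no filter and 203 with the filter at the 60th percentile. Those called higher numbered 70, against 663 after quantile normalization and 42 with no filter. At 2 h 117 were called higher, against 332 after quantile normalization, 291 on centred arrays and 189 by a 2-fold rule with no test. One was called lower (1), against 109 after quantile normalization, 7 on centred arrays, 0 with no filter (limma; 1298 of the 10699 genes had an unadjusted p under 0.05 in either direction as reported), 3 with an intensity trend, 2 with 50 added before log2 and 7 by the 2-fold rule. Between 8 h and 2 h 1155 were lower, against 2315 on centred arrays and 395 with no filter, and 156 higher, against 990 after quantile normalization, 72 on centred arrays, 20 with no filter, 62 with the stricter filter and 80 by the 2-fold rule. Fewer or more genes tested changes the adjustment by construction under the filters, and otherwise the cause was not tested. With a baseline replicate left out no residual degree of freedom remains, so those are values with no test. No paired analysis was possible because the groups share fewer than 2 replicate numbers.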

Other observations

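Cytokine genes of other helper subsets were dim or not called. Il17a and Il17f, the cytokines of type 17 helper cells, lay below the array median on all arrays, with log2 differences at 8 h of 0.25 and 0.46. Il9, a cytokine of mast cell growth, was higher on baseline replicate 1 (log2 8.59) than on baseline replicate 2 (7.67), the 2 h array (7.60) and the 8 h array (7.58), which were close together. Xcl1, a chemokine of activated T cells, was also dim and stood at 0.68 at 2 h and 0.83 at 8 h, above both baseline arrays at each time. Mif, a constitutively made cytokine, stood at −0.73 at 8 h (SE 0.22; limma, adjusted p = 0.105), and was called lower after quantile normalization (0.0175) and with an intensity trend in the prior (0.0465).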
